A study of Mus musculus with 9 samples.

Results

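The genes described here are the 5 NF-kB subunit genes (*Nfkb1*, *Nfkb2*, *Rel*, *Rela* and *Relb*) and 5 genes that hold NF-kB in check or modulate it (*Nfkbia*, *Nfkbid*, *Nfkbie*, *Nfkbiz* and *Tnfaip3*), taken by symbol as 10 of the 21883 genes in the expression table. Each symbol matched a single row, and each row lay above an FPKM of 0 in all 9 libraries. FPKM, the unit of the table, counts the fragments on a gene, scaled by the length of its transcript and by the number of fragments mapped, so levels can be compared between genes. The cells were invariant natural killer T (iNKT) cells, T cells with a semi-invariant receptor for glycolipids on CD1d, sorted from the thymus of C57BL/6 mice. There were 3 libraries of WT cells at stage 2 (CD44 high, NK1.1 negative), 3 of WT cells at stage 3 (NK1.1 positive, the mature stage) and 3 of stage 2 cells that lack *Med23*. WT mice were 6 weeks old by the design text, and the labels give no age for the *Med23*-deficient mice. In these mice *Cd4*-Cre deletes floxed *Med23*, a subunit of the Mediator complex, from the double-positive thymocyte stage on. How complete the deletion was in these libraries was not tested. The labels name no stimulation of the cells.

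NF-kB is a family of dimeric transcription factors held in the cytoplasm by inhibitory IkB proteins. In the classical route, antigen receptor or cytokine signals activate the IKK kinases, IkB is degraded, and dimers such as RELA with the product of *Nfkb1* enter the nucleus. In the alternative route, NIK and IKK alpha drive the processing of the *Nfkb2* product, which acts with RELB. In iNKT cells, NF-kB is known for its part in their survival and maturation in the thymus. Several of these genes are themselves NF-kB targets, which makes the pathway switch itself off.

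Because the family is known for regulating its own members, the kB consensus, the 10-letter DNA motif of NF-kB, was looked for on both strands of RefSeq promoter windows (GRCm38.p6, the build of the table, mm10), each running from 250 bases before an annotated gene start to 50 after it. Such windows were at hand for 7 of the 10 genes and not for *Nfkb1*, *Relb* and *Nfkbiz*. Of their 12 windows, some of which overlap, 8 held a match, against 4.51% of all 32851 windows. The matches before the first RefSeq start of each gene are shown 5′ to 3′ on the strand of the gene, with the matching letters in capitals.
Nfkb2, first match, chr19:46304688-46304717, plus strand: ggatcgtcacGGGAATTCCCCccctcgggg
Nfkb2, second match, chr19:46304716-46304736, plus strand: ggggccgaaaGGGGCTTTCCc
Rel, chr11:23771042-23771071, minus strand: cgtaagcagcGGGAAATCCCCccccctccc
Nfkbia, chr12:55492657-55492686, minus strand: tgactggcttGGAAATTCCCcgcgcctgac
Nfkbie, chr17:45555584-45555613, plus strand: gcagcaaacaGGGGGATTCCggaggggcgg
Tnfaip3, first match, chr10:19015516-19015545, minus strand: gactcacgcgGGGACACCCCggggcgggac
Tnfaip3, second match, chr10:19015411-19015432, minus strand: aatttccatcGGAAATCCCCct

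The longer runs of capitals of *Nfkb2* and *Rel* hold matches at 2 overlapping positions each, with both strands represented. *Nfkb2*, the subunit gene with the clearest difference between groups (below), has its matches within 39 bases before its start, which is the same in RefSeq and in the expression table. In *Tnfaip3*, the gene that varied most between libraries, the matches begin 125 and 12 bases before the RefSeq start. The gene model of *Tnfaip3* in the expression table starts farther upstream, so both matches lie inside its span there. No match lay before the first RefSeq start of *Rela* and *Nfkbid*. A match is a description of these letters, not a bound site, and no binding was measured.

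All 10 genes were well expressed. Their mean FPKM over the 9 libraries was higher than that of between 77.4% (*Rel*) and 97.6% (*Nfkbia*) of the genes in the table. *Nfkbia*, which encodes the classical inhibitor IkB alpha, had the highest level of the 10 in every library, from 38.79 to 73.35 FPKM. *Rela*, the main transactivating subunit, came next in 7 of 9 libraries, and *Tnfaip3* stood above it in the remaining libraries, WT stage 3 replicates 2 and 3. *Rel*, *Relb* and, in 1 library, *Nfkbiz* took the lowest place. Between these ends the order was not resolved: in WT stage 2 cells only the first step, from *Nfkbia* to *Rela*, separated neighbouring genes without overlap of their libraries, and each later gene in the order of means overlapped with the next. In WT stage 3 cells the steps from *Rela* to *Nfkb2* and from *Nfkb1* to *Relb* did not overlap, and in *Med23*-deficient cells those from *Rela* to *Nfkb2*, from *Nfkb1* to *Nfkbiz* and from *Nfkbiz* to *Relb*.

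**Figure D1:**
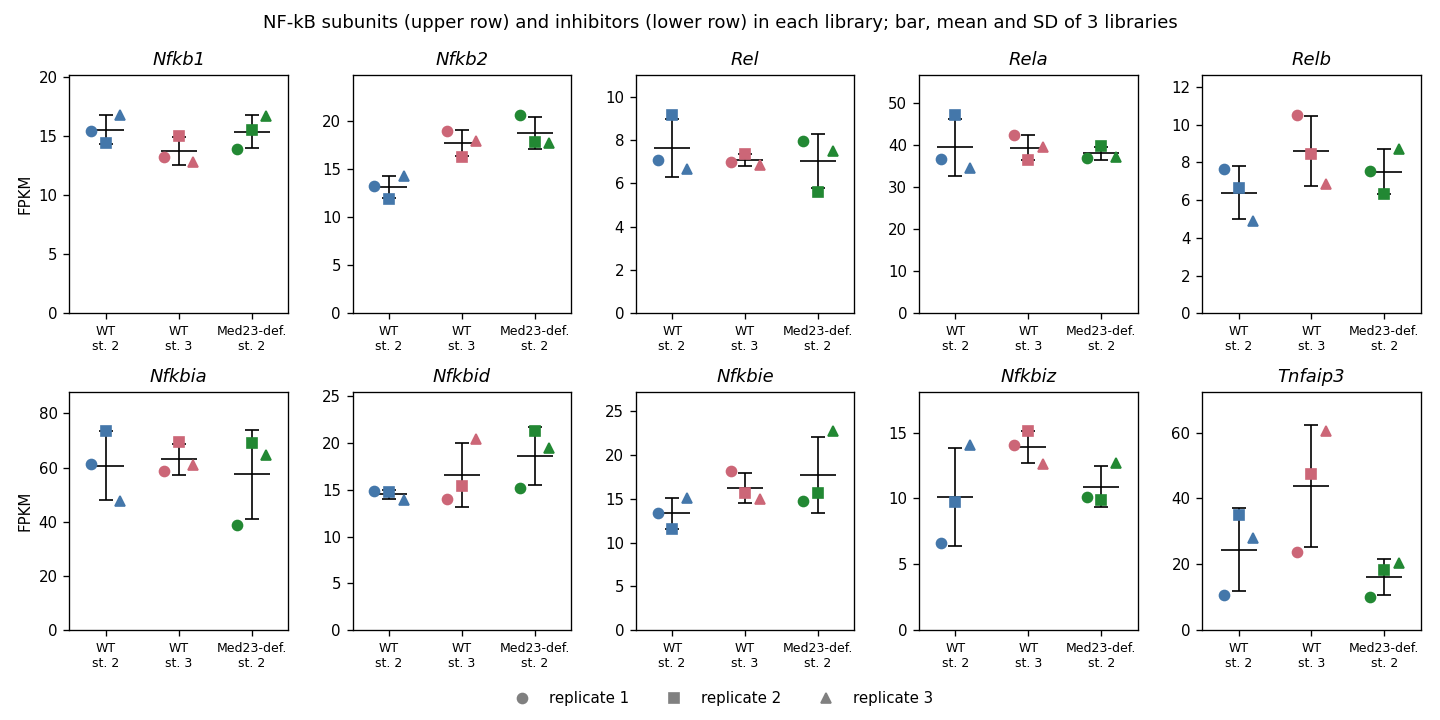
FPKM of each of the 10 genes (y axis, from 0) in each of the 3 groups of libraries (x axis), with 1 marker per library, its shape giving the replicate number, and the mean with SD of 3 libraries. *Nfkb2* lies between 11.93 and 14.27 in WT stage 2 and between 16.29 and 20.68 in the other libraries, and *Tnfaip3* spreads from 10.07 to 60.37.

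*Med23* itself had FPKM values of 5.51, 5.15 and 6.74 in WT stage 2, 7.14, 4.44 and 6.12 in WT stage 3 and 4.80, 3.60 and 3.92 in the *Med23*-deficient libraries, which lay below WT stage 2 and overlapped with WT stage 3. This value pools all exons, so residual signal does not show whether the deleted part was transcribed. The summed FPKM of 6 stage 3 markers (*Klrb1c*, *Tbx21*, *Il2rb*, *Klrd1*, *Klrk1* and *Ifng*) was 551 to 609 in WT stage 3, 165 to 200 in WT stage 2 and 140 to 206 in *Med23*-deficient cells, while *Cd3e*, a component of the T cell receptor complex, had 110 to 138 FPKM. The sum hides differences between the stage 2 groups. In *Med23*-deficient cells 3 of the 6 markers were lower than in WT stage 2 without overlap, and 3 had higher estimates. Among all genes, 14.0% did not overlap in this comparison and 47.3% had higher estimates. From WT to *Med23*-deficient stage 2, mean FPKM went from 16.7 to 3.42 for *Klrb1c*, 9.49 to 1.47 for *Klrd1* and 1.45 to 0.263 for *Klrk1*. Markers of double-positive thymocytes (7 of 7 in the table) summed to between 1.07 and 5.05 FPKM, of myeloid cells (3 of 7) to at most 1.69, of erythroid cells (1 of 5) to at most 0.75 and of thymic epithelium (3 of 5) to at most 1.07. Of the B cell markers (3 of 6), *Cd79a* and *Cd79b* summed to at most 0.50 FPKM, whereas *Ighm* had 31.2 to 49.7 in WT stage 2, 46.0 to 55.1 in WT stage 3 and 85.6 to 104 in *Med23*-deficient libraries. Depth is unknown, since the table holds no counts, and between 15584 and 17333 genes lay above 0 per library. In bulk RNA, fewer cells expressing a gene and less RNA per cell cannot be told apart.

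Was the NF-kB machinery remodelled as iNKT cells matured from stage 2 to stage 3, or when *Med23* was lost? None of the 10 genes passed a call rule of the main test in either comparison. The test was limma on log2(FPKM + 1), which understates the change of low genes. A gene was called where the p adjusted by the Benjamini-Hochberg method was 0.05 or less, or by the study's thresholds of a 2-fold change with an unadjusted p of at most 0.05. Between WT stage 3 and WT stage 2, 0 of 10 genes passed the adjusted p, where 1.67% of all genes tested did, and 0 passed the fold and p thresholds, where 3.6% of all genes did. Between *Med23*-deficient and WT stage 2 cells the counts were again 0 and 0, against 0.213% and 2.11% of all genes. At shares this low, 0 of 10 is not a result about the family. At an unadjusted p of at most 0.05 in limma, 1 of 10 genes (*Nfkb2*) passed in either comparison, against 13.2% and 9.58% of all genes. The Ballgown-style linear model, an alternative, called 0 by adjusted p in both, where 0.0242% and 0.00484% of all genes passed, and by the fold and p thresholds 1 (*Nfkbiz*) and 0, where 3.73% and 1.86% of all genes passed.

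Under the limma model, the intervals limit how large an undetected change could be, and other models gave other standard errors. Between WT stage 3 and WT stage 2, the 95% limma interval lay within a 2-fold change either way for 8 of the 10 genes, all but *Nfkbiz* and *Tnfaip3*. Between *Med23*-deficient and WT stage 2 cells it did so for 9, all but *Tnfaip3*. The median log2 fold change of the 10 genes was 0.22 in the first comparison, where all genes tested had a median of -0.01, and 0.06 in the second, where all genes again had -0.01. With maturation, 8 of the 10 estimates were above 0, as were 46.9% of those of all genes, and 5 of 10 were higher in *Med23*-deficient than in WT stage 2 cells, as were 47.3% of all genes. The groups did not overlap for 1 of 10 in the first comparison (17.8% of all genes) and for 2 of 10 in the second (14.0%). Both comparisons use the same 3 WT stage 2 libraries.

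**Figure D2:**
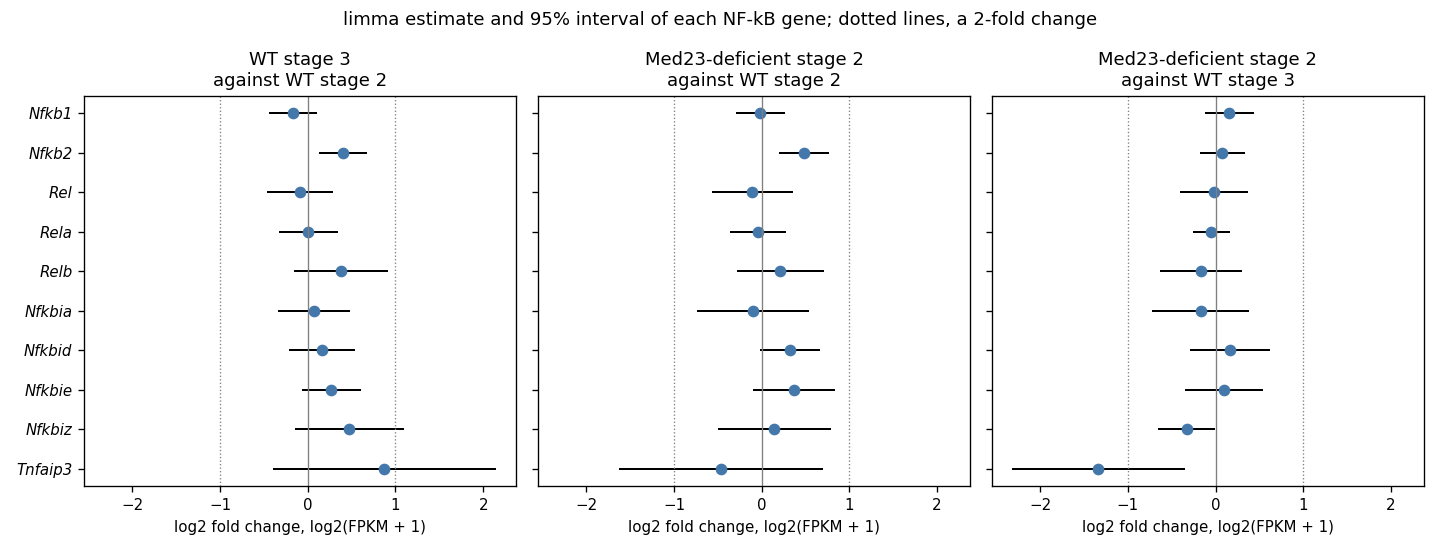
Log2 fold change on the log2(FPKM + 1) scale (x axis) of each gene (y axis) in the 3 comparisons, with dots for the limma estimate, bars for the 95% interval and dotted lines at a 2-fold change. The intervals of *Nfkb2* lie above 0 in the left and middle panels, and that of *Tnfaip3* is the widest in each panel.

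Among the subunit genes, *Nfkb2* was the 1 whose WT stage 2 libraries stood apart. *Nfkb2* (ENSMUSG00000025225, chromosome 19, 46304737 to 46312090, plus strand) encodes the precursor that is processed in the alternative route. It had FPKM values of 13.22, 11.93 and 14.27 in WT stage 2, at 19.01, 16.29 and 17.88 in WT stage 3 and at 20.68, 17.82 and 17.77 in *Med23*-deficient stage 2. Every library of the latter groups was higher than every WT stage 2 library, and the latter groups overlapped with each other. The mean was 13.1 ± 1.17 FPKM in WT stage 2, 17.7 ± 1.37 in WT stage 3 and 18.8 ± 1.67 in *Med23*-deficient stage 2 (SD, n = 3 each).

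The *Nfkb2* difference was small, 1.35 times between the means of WT stage 3 and WT stage 2 and 1.43 times between those of *Med23*-deficient and WT stage 2. The log2 estimate was 0.41 (limma standard error 0.11, unadjusted p = 0.0110, adjusted p = 0.182) in the first and 0.48 (standard error 0.12, unadjusted p = 0.00567, adjusted p = 0.225) in the second, so it did not pass a call rule in either. Over 17 alternatives the estimate kept its sign, between 0.30 and 0.49 in the first comparison and between 0.35 and 0.58 in the second. The adjusted p stayed between 0.108 and 0.577 and between 0.106 and 0.566. *Med23*-deficient stage 2 and WT stage 3 cells differed by 0.08 (95% interval -0.18 to 0.34, limma adjusted p = 0.824).

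A ratio of genes within a library is untouched by library scaling, and that of *Nfkb2* to *Nfkb1* was computed after the values had been seen. It was 0.859, 0.828 and 0.849 in WT stage 2, then 1.44, 1.08 and 1.39 in WT stage 3 and 1.49, 1.15 and 1.06 in *Med23*-deficient stage 2. *Nfkb1* thus exceeded *Nfkb2* in each WT stage 2 library and fell short of it in each of the other 6. Also computed were the ratios of *Relb* to *Rela* and of *Nfkbia* to *Rela*, and both overlapped between all groups. That of *Relb* to *Rela* was 0.164 ± 0.0391 in WT stage 2, 0.219 ± 0.0396 in WT stage 3 and 0.199 ± 0.0376 in *Med23*-deficient cells (SD, n = 3 each). As a share of the summed FPKM of the 5 subunit genes, *Nfkb2* took 16.1 ± 2.60% in WT stage 2, 20.5 ± 0.905% in WT stage 3 and 21.7 ± 1.88% in *Med23*-deficient cells (SD, n = 3 each), without overlap between WT stage 2 and either other group. An exact permutation test of 3 against 3 libraries cannot give a 2-sided p under 0.10, so none was run on these ratios.

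**Figure D3:**
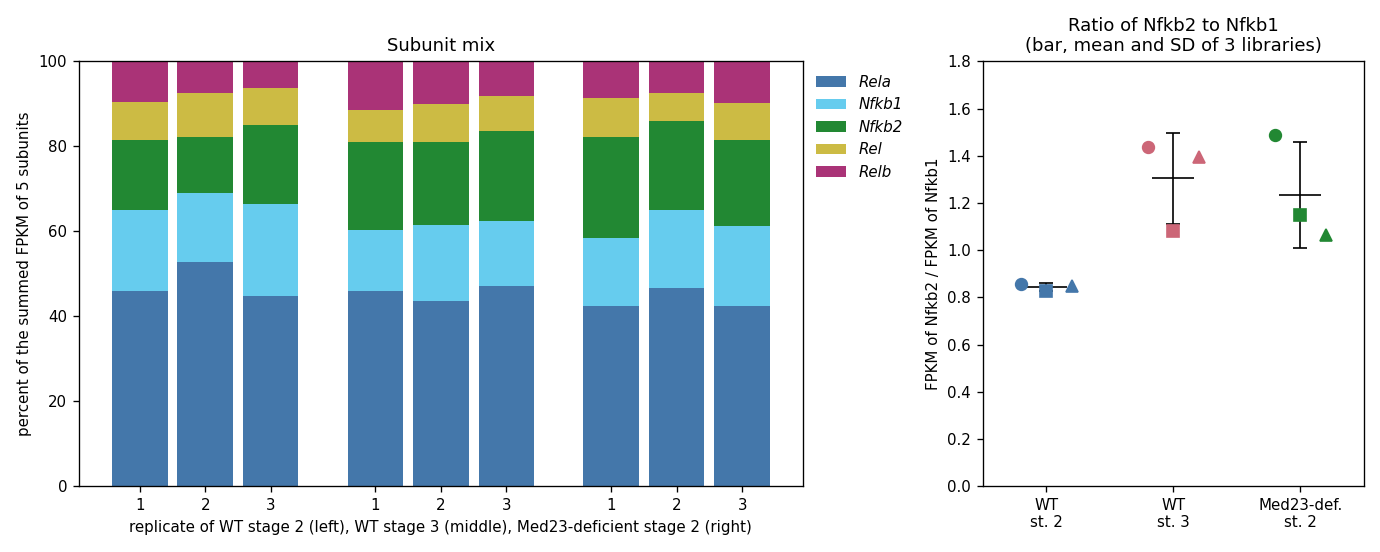
Left, percent of the summed FPKM of the 5 subunit genes taken by each (y axis) in each library (x axis). Right, the ratio of *Nfkb2* to *Nfkb1* FPKM (y axis, from 0) by group, with 1 marker per library (circle, square and triangle for replicates 1, 2 and 3) and the mean with SD: it lies between 0.828 and 0.859 in WT stage 2 and above 1 in each other library.

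None of the other subunit genes passed a call rule. *Rela* (ENSMUSG00000024927, chromosome 19, 5637483 to 5648130) had FPKM values of 36.72, 47.16 and 34.48 in WT stage 2, 42.22, 36.29 and 39.47 in WT stage 3 and 36.90, 39.73 and 37.21 in *Med23*-deficient cells. The groups overlapped in each comparison, and *Rela* made up 42.3% to 52.8% of the summed subunit FPKM of a library. Its log2 fold change was 0.01 between WT stage 3 and stage 2 (95% interval -0.33 to 0.34, limma adjusted p = 0.988) and -0.04 between *Med23*-deficient and WT stage 2 (95% interval -0.36 to 0.28, adjusted p = 0.926).

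*Nfkb1* (ENSMUSG00000028163, chromosome 3, 135584655 to 135691547), the classical partner of RELA, had FPKM values of 15.39, 14.41 and 16.81 in WT stage 2, 13.21, 15.04 and 12.83 in WT stage 3 and 13.88, 15.51 and 16.71 in *Med23*-deficient cells. It and *Nfkb2* were the most even of the 10 within groups, with a pooled SD of 0.12 on the log2 scale, and only 7.04% of the 6378 genes that averaged 5 FPKM or more varied less than *Nfkb1*. Its log2 fold changes were -0.17 (95% interval -0.44 to 0.10, limma adjusted p = 0.605) with maturation and -0.02 (95% interval -0.30 to 0.26, adjusted p = 0.965) with *Med23* loss. A short gene model of unknown type, *Gm43430*, lies inside *Nfkb1* on the same strand and has its own row.

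*Rel*, which encodes the lymphoid subunit c-Rel, and *Relb*, the partner in the alternative route, were the least abundant subunit genes. *Rel* (ENSMUSG00000020275, chromosome 11, 23736847 to 23770970) had FPKM values of 7.06, 9.17 and 6.65 in WT stage 2, 6.99, 7.37 and 6.85 in WT stage 3 and 7.96, 5.61 and 7.51 in *Med23*-deficient cells, with all groups overlapping and limma adjusted p of 0.828 and 0.863 against WT stage 2. *Relb* (ENSMUSG00000002983, chromosome 7, 19606217 to 19629438) had FPKM values of 7.68, 6.65 and 4.89 in WT stage 2, 10.54, 8.44 and 6.87 in WT stage 3 and 7.53, 6.31 and 8.69 in *Med23*-deficient cells. All groups overlapped. Its log2 fold change was 0.38 with maturation (95% interval -0.15 to 0.91, limma adjusted p = 0.540) and 0.21 with *Med23* loss (95% interval -0.29 to 0.71, adjusted p = 0.738). The WT stage means of *Relb* stood in a ratio of 1.34, close to the 1.35 of *Nfkb2*, with a wider spread: leaving out 1 library gave estimates of 0.22 (without WT stage 2 replicate 3) to 0.51, and the replicate block an unadjusted p of 0.0448 (limma adjusted p = 0.362). The Ballgown-style model gave 0.04 (unadjusted p = 0.912), the lowest of the 17 alternatives. Summed over the 5 genes, subunit FPKM lay between 77.1 and 92.0 in each of the 9 libraries.

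Among the inhibitors, *Nfkbia* (ENSMUSG00000021025, chromosome 12, 55489411 to 55492647) had FPKM values of 61.21, 73.35 and 47.66 in WT stage 2, 58.69, 69.53 and 61.04 in WT stage 3 and 38.79, 69.21 and 64.68 in *Med23*-deficient cells. A single library, *Med23*-deficient replicate 1, was lower than all others, and the groups overlapped. The log2 fold change was 0.07 with maturation (95% interval -0.34 to 0.48, limma adjusted p = 0.868). With *Med23* loss it was -0.10 (95% interval -0.74 to 0.54, adjusted p = 0.911), and 0.16 without that library.

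*Nfkbie* and *Nfkbid*, for IkB epsilon and the nuclear IkB protein IkB-NS, lay at middle levels. *Nfkbid* (ENSMUSG00000036931, chromosome 7, 30421732 to 30428746) had FPKM values of 14.85, 14.75 and 13.96 in WT stage 2, 13.97, 15.37 and 20.41 in WT stage 3 and 15.19, 21.25 and 19.50 in *Med23*-deficient cells. The lowest *Med23*-deficient library was only just higher than the highest WT stage 2 library, and the log2 fold change of 0.33 had a 95% interval of -0.01 to 0.67 (limma adjusted p = 0.542). Between the WT stages it was 0.16 (95% interval -0.21 to 0.54, adjusted p = 0.673), and 0.01 without WT stage 3 replicate 3. *Nfkbie* (ENSMUSG00000023947, chromosome 17, 45555716 to 45563169) had FPKM values of 13.32, 11.55 and 15.10 in WT stage 2, 18.17, 15.62 and 14.91 in WT stage 3 and 14.77, 15.67 and 22.68 in *Med23*-deficient cells. WT stage 2 overlapped with both other groups, with log2 fold changes of 0.27 (95% interval -0.06 to 0.60, limma adjusted p = 0.477) and 0.37 (95% interval -0.10 to 0.83, adjusted p = 0.621). The latter was 0.19 without *Med23*-deficient replicate 3, its highest library, and 0.59 in the Ballgown-style model.

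*Nfkbiz* (ENSMUSG00000035356, chromosome 16, 55811375 to 55838899), for the nuclear and inducible IkB zeta, had FPKM values of 6.62, 9.70 and 14.04 in WT stage 2, 14.02, 15.09 and 12.60 in WT stage 3 and 10.13, 9.85 and 12.67 in *Med23*-deficient cells. WT stage 2 replicate 3 was as high as the WT stage 3 libraries, and the groups overlapped. Between the WT stages it differed by 0.47 on the log2 scale (limma standard error 0.25, adjusted p = 0.506). Leaving out replicate 1 of WT stage 2 gave 0.23, leaving out its replicate 3 gave 0.72, and the Ballgown-style model, with its library-size covariate, gave 1.12 (unadjusted p = 0.00918, adjusted p = 0.200). With *Med23* loss the log2 fold change was 0.14 (95% interval -0.50 to 0.79, limma adjusted p = 0.868).

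*Tnfaip3* (ENSMUSG00000019850, chromosome 10, 19000910 to 19015657), for the ubiquitin-editing enzyme known as TNFAIP3 that ends signalling to IKK, varied far more than the rest. It had FPKM values of 10.54, 34.88 and 27.92 in WT stage 2, 23.85, 47.37 and 60.37 in WT stage 3 and 10.07, 18.37 and 20.37 in *Med23*-deficient cells, a span of 6.00 times. Replicate 1 was the lowest library of each group. The pooled within-group SD was 0.70 on the log2 scale, larger than that of 95.05% of the genes that averaged 5 FPKM or more. Means were 24.4 ± 12.5, 43.9 ± 18.5 and 16.3 ± 5.46 FPKM (SD, n = 3 each) in the same order of groups.

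Neither difference of *Tnfaip3* from WT stage 2 passed a call rule, and the groups overlapped. The log2 fold change was 0.87 with maturation (95% interval -0.40 to 2.15, limma adjusted p = 0.559) and -0.46 with *Med23* loss (95% interval -1.63 to 0.70, adjusted p = 0.750). Without WT stage 2 replicate 1, the lowest of its group, these became 0.38 and -0.96. With the replicate number as a block, the maturation estimate of 0.87 had a standard error of 0.17 (limma unadjusted p = 0.00637, adjusted p = 0.177). In the Ballgown-style model the maturation estimate was 2.02 (unadjusted p = 0.0694). The *Med23*-loss estimate took the opposite sign in that model, at 0.10 (unadjusted p = 0.892). *Med23*-deficient stage 2 and WT stage 3 cells, which differ in both genotype and stage, did not overlap in *Tnfaip3*: every *Med23*-deficient library was below every WT stage 3 library. The log2 estimate was -1.34 (limma standard error 0.41, unadjusted p = 0.0164, adjusted p = 0.293), past the fold and p thresholds and short of the adjusted p.

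In that last comparison *Tnfaip3* was the 1 of 10 genes past the fold and p thresholds, which 2.86% of all genes passed, and 0 passed the adjusted p, which 1.33% of all genes did. The *Tnfaip3* call was lost without WT stage 3 replicate 2 (log2 fold change -1.23, unadjusted p = 0.0509) and in the Ballgown-style model (-1.32, unadjusted p = 0.0944). *Nfkbiz* was also at the edge, with -0.33 (95% interval -0.66 to -0.00, limma unadjusted p = 0.0491, adjusted p = 0.485) and overlapping groups. At an unadjusted p of at most 0.05, these were the 2 genes of 10, against 10.2% of all genes. The groups did not overlap for 1 of 10, against 14.2% of all genes, 4 of 10 estimates were above 0, against 50.5%, and the interval lay within a 2-fold change either way for 9 of the 10.

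Some early response genes had the same low libraries as *Tnfaip3*. These are genes that cells switch on within minutes of a signal or of handling. In the list of 12 such genes, *Dusp1*, a MAP kinase phosphatase singled out after its values were seen, had FPKM values of 19.6, 62.0 and 44.1 in WT stage 2, 49.8, 99.4 and 128 in WT stage 3 and 26.5, 59.5 and 52.8 in *Med23*-deficient cells. Like *Tnfaip3*, it was lowest in replicate 1 of every group, and both WT groups had the same order of libraries in the pair of genes. Replicate 1 was the lowest library of every group for 4 of the 12 genes (*Btg2*, *Dusp1*, *Fos* and *Fosb*), and replicate 3 for another 4 (*Egr1*, *Hspa1a*, *Hspa1b* and *Junb*), so the list as a whole did not follow *Tnfaip3*. The summed FPKM of the 12 genes was 300 to 433 in WT stage 2, 421 to 570 in WT stage 3 and 308 to 495 in *Med23*-deficient cells. Between WT stage 3 and stage 2, 11 of 12 had a higher estimate, against 46.9% of all genes, and the median log2 fold change was 0.56. In this comparison 0 passed either call rule, where 1.67% of all genes passed the adjusted p and 3.6% the fold and p thresholds. Against WT stage 3, the *Med23*-deficient cells had a lower estimate for 11 of 12, again with 0 calls and a median of -0.31. Of all genes, 50.5% had a higher estimate there, 1.33% passed the adjusted p and 2.86% the fold and p thresholds. At such call shares, 0 of 12 is not a result about the list. With *Med23* loss, 9 of 12 had a higher estimate, against 47.3% of all genes, and 3 a lower one. *Egr1*, for a transcription factor, was lower past the fold and p thresholds, which 2.11% of all genes passed. Between the WT stages the log2 fold change of *Egr1* was -0.82, the 1 of 12 below 0. Their part in the *Tnfaip3* values was not tested.

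**Figure D4:**
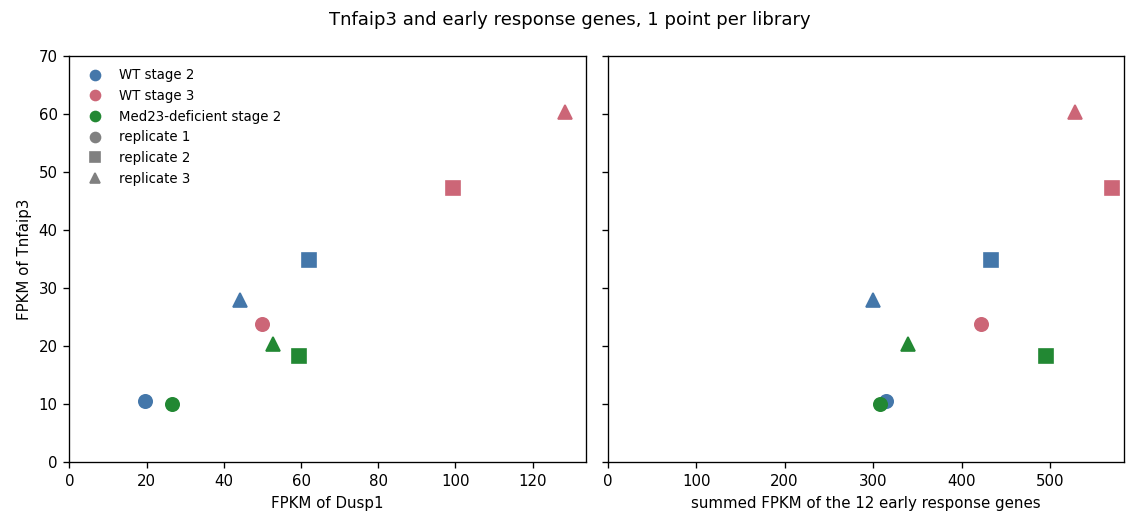
FPKM of *Tnfaip3* (y axis) against FPKM of *Dusp1* (left) and the summed FPKM of the 12 early response genes (right), with 1 point per library, its colour giving the group and its shape the replicate number. *Tnfaip3* is at 10.07 and 10.54 in the 2 libraries lowest in *Dusp1* and at 47.37 and 60.37 in the 2 highest.

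FPKM was also summed over the 5 genes that hold NF-kB in check or modulate it, with other inhibitors such as *Nfkbib* left out. The sum was 107, 144 and 119 in WT stage 2, 129, 163 and 169 in WT stage 3 and 89.0, 134 and 140 in *Med23*-deficient cells. Divided by the summed subunits of the same library, this was 1.49 ± 0.147 in WT stage 2, 1.79 ± 0.340 in WT stage 3 and 1.40 ± 0.325 in *Med23*-deficient cells (SD, n = 3 each), with all groups overlapping. *Nfkbia* and *Tnfaip3* hold most of these sums, so they follow those genes.

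Calls in the rest of the pathway are given beside the shares of all genes that passed. Between WT stage 3 and WT stage 2, 1.67% of all genes passed the adjusted p and 3.6% the fold and p thresholds. Between *Med23*-deficient and WT stage 2 cells these shares were 0.213% and 2.11%, and between *Med23*-deficient and WT stage 3 cells 1.33% and 2.86%. At shares this low, 0 calls in a short list is not a result about that list. Of 11 genes of the IKK complex and the kinases above it, *Ikbke* alone passed the adjusted p between WT stage 3 and stage 2. *Ikbke*, for the non-canonical kinase IKK epsilon, was 15.0 ± 1.45 FPKM in WT stage 2, 7.73 ± 0.650 in WT stage 3 and 15.0 ± 2.83 in *Med23*-deficient cells (SD, n = 3 each), and fell with maturation, by 0.87 on the log2 scale (limma standard error 0.12, adjusted p = 0.0383). *Map3k8*, for the kinase TPL2 that is bound by the *Nfkb1* precursor, was higher by the fold and p thresholds in that comparison. It had FPKM values of 0.64, 0.94 and 1.23 in WT stage 2, 4.04, 2.96 and 2.95 in WT stage 3 and 2.20, 2.08 and 2.31 in *Med23*-deficient cells, with no overlap between any groups and a log2 difference of 1.16 (limma standard error 0.25, adjusted p = 0.0985) between the WT stages. The most abundant of the list, *Tab2* (23.6 FPKM over all libraries) and *Tbk1* (20.5), passed neither rule, and 0 of 11 passed between *Med23*-deficient and WT stage 2 cells.

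The 15 receptor adaptors, led by *Rbck1* and *Traf5* with 22.3 and 13.7 FPKM, and the 13 other inhibitors and deubiquitinases, led by *Tnip1* and *Otulin* with 33.2 and 23.4 FPKM, had 0 calls in all 3 comparisons. Their median log2 fold changes were -0.12 and -0.06 with maturation and -0.08 and 0.09 with *Med23* loss. Of the 13 other inhibitors, 2 were higher and 2 lower without overlap with maturation, where the groups did not overlap for 17.8% of all genes. One of the lower, *Tnip2*, falls outside the naming rule given below and was singled out after its values were seen. Its mean was 9.51 FPKM in WT stage 2, 5.03 in WT stage 3 and 10.3 in *Med23*-deficient cells. Its log2 fold change with maturation was -0.83 (limma adjusted p = 0.182).

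Of 19 textbook NF-kB target genes outside the family, 18 were in the table. With maturation, 1 rose and 1 fell past both rules, where 1.67% of all genes passed the adjusted p and 3.6% the fold and p thresholds. *Ccl5*, a chemokine gene, rose from 7.39 ± 3.17 to 32.8 ± 8.23 FPKM (SD, n = 3 each; log2 fold change 2.06, limma adjusted p = 0.0481), and *Irf4*, for a transcription factor, fell from 7.89 ± 2.16 to 0.537 ± 0.465 FPKM (log2 fold change -2.55, adjusted p = 0.0286). The median of the list was -0.02. With *Med23* loss, *Il2ra*, for the IL-2 receptor alpha chain, alone passed the fold and p thresholds, at 0.95, 1.02 and 1.50 FPKM in WT stage 2 and 3.66, 3.40 and 6.57 in *Med23*-deficient cells (log2 fold change 1.33, limma adjusted p = 0.206), and 0 of 17 tested passed the adjusted p.

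Between *Med23*-deficient stage 2 and WT stage 3 cells, 2 of 18 targets were higher and 2 lower by the fold and p thresholds, which 2.86% of all genes passed. The adjusted p was passed by 1 of 18, against 1.33% of all genes. This was *Ccl5*, lower by both rules (log2 fold change -2.61, limma adjusted p = 0.00844). *Icam1*, for an adhesion molecule, was lower (-1.04, adjusted p = 0.134), and *Irf4* (1.85, adjusted p = 0.102) and *Il2ra* (1.71, adjusted p = 0.0697) were higher, by the fold and p thresholds only. *Cd40lg* and *Bcl2a1b*, the most abundant targets at 145 and 62.1 FPKM over all libraries, were not called in any comparison. *Bcl2a1b* has near-identical gene copies, so its value is uncertain.

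Across the 9 libraries, the genes most like *Nfkb1* in log2(FPKM + 1) were *Actr1b*, *Pml* and *Copa*, with Pearson r of 0.898, 0.897 and 0.874 among 5693 genes averaging 5 FPKM or more. Those most like *Nfkbia* were *Plekha2*, *Gps2* and *Psmd10*, with 0.905, 0.893 and 0.879. Both groupings are descriptions of 9 points that share 3 groups, and *Psmd10* follows the low *Nfkbia* value of *Med23*-deficient replicate 1, at 1.67 FPKM there against 4.71 to 8.02 in the other libraries.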

How the data were processed

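The 9 RNA libraries of thymic iNKT cells were made with a SMARTer kit for small amounts of RNA that keeps strand. The authors trimmed reads with Trimmomatic 0.36, aligned them to mm10 with HISAT2, kept reads hitting at most 2 loci and quantified GENCODE vM12 genes with StringTie. They deposited FPKM per gene and library; strand handling in counting is not given in the sources used here. The labels do not say that libraries came from separate animals, so p-values measure the spread between these libraries. The table gives no read counts, so depth is unknown.

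log2(FPKM + 1) was tested with limma 3.58.1 (R 4.3.3, trend), on the 6 libraries compared, leaving out genes at 0 in all of them (20689, 20674 and 20846 genes stayed), and the code was tested on simulated data. A linear model in the style of Ballgown, the tool of the study, was an alternative, as were pseudocounts of 0.1 and 0.01, a minimum mean of 1 FPKM, 4 scalings, no trend, all 9 libraries, a replicate block and each library left out. Every NF-kB gene is named. Of the pathway lists, genes past a rule and the 2 most abundant of each are named, and for likeness the top 3 genes, without Gm and Rik models. The result of 1 pathway list is not reported here. Members, lists and tests were chosen with earlier results of these data known. Figures were drawn with Python 3.11.15 and matplotlib 3.10.9.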

Additional observations from a re-analysis of the deposited data

How the results depend on the processing

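Over 17 alternatives in each of 3 comparisons, 0 of the 10 NF-kB genes reached an adjusted p of at most 0.05, with a lowest value of 0.0601 (*Tnfaip3*, *Med23*-deficient stage 2 against WT stage 3, replicate block). In that comparison the number of genes past the fold and p thresholds was 1 (*Tnfaip3*) and fell to 0 in the Ballgown-style model, and leaving out 1 library gave 0 to 1, with 0 without WT stage 3 replicate 2. In WT stage 3 against WT stage 2 it was 0, and 1 (*Nfkbiz*) in the Ballgown-style model. The cause of these moves was not tested. Of 510 re-estimated log2 fold changes, 30 took the opposite sign, all of values that no rule had called. The share of all genes past the adjusted p in the 3 comparisons, 1.67%, 0.213% and 1.33%, was 0.0242%, 0.00484% and 0.0863% in the Ballgown-style model, which shares no spread between genes.

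The replicate numbers were not shown to pair the libraries: deviations from group means correlated at 0.00 to 0.27 in 9 same-numbered pairs, 3 of them over 0.1, and at -0.17 to 0.12 in 18 pairs of different numbers, 1 of them over 0.1. All same-numbered pairs were above 0, without every one passing 0.1. The 3 that did were the replicate 3 pairs, at 0.16, 0.14 and 0.27. Replicate 3 also had the most genes above 0 in each group, with 16670 in WT stage 2, 17151 in WT stage 3 and 17333 in *Med23*-deficient cells. With the replicate block, 0 NF-kB genes passed the adjusted p in each comparison, and the fold and p thresholds were passed by 0, 0 and 1, as without it. For *Tnfaip3* the blocked unadjusted p was 0.00637, 0.067 and 0.000153 in the 3 comparisons. The share of all genes past the adjusted p under the block was 0.0918%, 0% and 0.201%. Over genes averaging 1 FPKM or more, the median log2 change went from -0.05 to -0.13 and -0.15 on the TPM scale in the comparisons with WT stage 2. Relative to these shifts the *Nfkb2* values of 0.30 and 0.35 on that scale were about as large as before. On that scale 1 gene model, *Gm23935*, weighs heavily, with 62.2% to 71.9% of the summed FPKM of a library. The unadjusted p of *Nfkb2* was at most 0.05 in 17 of 17 alternatives with *Med23* loss and in 15 with maturation. The exceptions were the TPM scale without *Gm23935* and the Ballgown-style model (unadjusted p = 0.0954).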

Other observations

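*Ripk1*, for a kinase that links tumour necrosis factor receptors to IKK, falls outside the naming rule and was singled out after its values were seen. Its FPKM values were 11.06, 10.68 and 12.27 in WT stage 2, 9.81, 13.21 and 11.43 in WT stage 3 and 5.50, 5.41 and 6.48 in *Med23*-deficient stage 2, where every library was below every WT library. The log2 fold change of *Ripk1* was -0.86 against WT stage 2 (95% interval -1.19 to -0.54, limma adjusted p = 0.0908) and -0.87 against WT stage 3 (95% interval -1.24 to -0.51, adjusted p = 0.0683), just short of a 2-fold change on this scale and of the adjusted p in both. Between the WT stages it was 0.01 (95% interval -0.33 to 0.35).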
